A study of Mus musculus with 6 samples.

Results

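Chemokines and their receptors were examined in cultured neural crest derivatives of the mouse, by the rule that a gene on the array carries a symbol of the Ccl, Cxcl, Cx3cl1, Xcl1, Ccr, Cxcr, Cx3cr1 or Ackr series. The rule found 52 genes, 33 ligands and 19 receptors, among the 18194 genes with a probe set of a single symbol, and each gene was represented by whichever of its probe sets had the highest average across the 6 arrays. Expression had been measured on Affymetrix arrays in neurospheres, floating spheres of dividing cells, of C57BL/6J mice without a transgene or deletion named in the labels. The first group, rNCSC (3 arrays), came from dorsal root ganglia of embryonic day 12.5, and is described as neural crest stem cells reprogrammed in culture so that they can form cells of the central nervous system. The second group, pNCSC (3 arrays), came from the palate of mice 6 to 8 weeks old, with tissue taken from 3 to 5 animals. Both were grown in serum-free medium with bFGF at 20 or 40 ng/ml, EGF at 20 ng/ml, heparin, N2 and B27 at 1% or 3%, and RNA was taken at passage 3. Which culture received which bFGF and B27 level is not given in the sources used here, and tissue, donor age and culture change together between the groups, so that they cannot be told apart. Whether replicate arrays are separate cultures or separate animals is not stated in the labels, so p-values reflect only how far these arrays scatter, which may be technical. In such bulk samples, fewer cells of a type and less RNA per cell cannot be told apart.

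Chemokines are small secreted proteins that bind G protein coupled receptors and direct the migration of leukocytes and of other cells. Ligands of the CXC class with an ELR motif attract neutrophils through Cxcr2, ligands of the CC class attract mainly monocytes, eosinophils and lymphocytes, and many of these genes are switched on by interleukin 1, tumour necrosis factor or interferons through NF-kappaB, C/EBP and interferon regulatory factors. Atypical receptors (Ackr) bind chemokines without classical G protein signalling and clear them, and the pairing of Cxcl12 with Cxcr4 and Ackr3 guides migrating neural and neural crest cells.

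The values are log2 expression values, on which 4 was taken as the level below which a probe set is dim, and 50.2% to 50.6% of all probe sets reached 4 on each array. The correlation between arrays over all probe sets was 0.988 to 0.996 within the groups and 0.833 to 0.844 between them, and no pair of arrays held identical values. The markers matched the labels in part. All 8 neural progenitor markers tested, Olig2 and Sox2 among them, were higher in rNCSC, with a mean level of 10.66 to 11.05 on the rNCSC arrays and 4.55 to 4.69 on the pNCSC arrays. The 4 neural crest markers with a probe set (Sox10, Ngfr, Foxd3, Erbb3) and all 8 mesenchymal markers were higher in pNCSC, at mean levels of 5.06 to 6.48 against 3.23 to 3.38 and of 11.75 to 12.70 against 3.04 to 3.53. A gene was tested where it reached 4 on at least 3 arrays, and of all these genes 33.1% were higher in pNCSC and 40.2% in rNCSC. All 4 neural crest and 7 of the mesenchymal markers were under 4 on all rNCSC arrays, so they entered only through pNCSC. Likewise, 4 of the neural progenitor markers were under 4 on all pNCSC arrays and entered only through rNCSC. One array stood apart in some of what follows: pNCSC replicate 1 was the lowest of its group for most mast cell genes and the highest for several chemokines.

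The most closely related set of ligands, Cxcl1, Cxcl2 and Cxcl3, is shown first by the sequence just before the transcription start, because these neighbours on chromosome 5 were all higher in pNCSC while Cxcl15, which lies between Cxcl3 and Cxcl1, was under 4 on all 6 arrays. Sequences are 5′ to 3′ on the strand of the gene, from RefSeq on GRCm38.p6, and the 120 bases before the start are given. Capitals mark matches to the kappaB consensus, the DNA element bound by NF-kappaB, and to ATAAAAGG, a TATA element. The stretch of Cxcl15 holds no match to either. However, only this exact form of the TATA element was searched, and a form with other letters can be read in the Cxcl15 stretch. The dim Cxcl15 is therefore not shown to lack a TATA element.
Cxcl1: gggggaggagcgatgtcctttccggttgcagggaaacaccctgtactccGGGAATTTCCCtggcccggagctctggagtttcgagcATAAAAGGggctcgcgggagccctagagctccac
Cxcl2: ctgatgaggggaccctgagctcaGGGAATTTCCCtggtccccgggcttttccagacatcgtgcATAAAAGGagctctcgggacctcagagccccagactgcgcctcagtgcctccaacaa
Cxcl3: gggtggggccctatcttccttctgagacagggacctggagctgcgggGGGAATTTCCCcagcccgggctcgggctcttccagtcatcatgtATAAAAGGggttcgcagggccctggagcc
Cxcl15: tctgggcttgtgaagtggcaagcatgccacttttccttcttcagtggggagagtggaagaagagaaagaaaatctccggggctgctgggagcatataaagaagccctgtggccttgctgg
The stretches lie at chr5:90891125-90891244 (Cxcl1, plus strand), chr5:90903779-90903898 (Cxcl2, plus strand), chr5:90785981-90786100 (Cxcl3, plus strand) and chr5:90794414-90794533 (Cxcl15, plus strand). In Cxcl1, Cxcl2 and Cxcl3 the kappaB match GGGAATTTCC begins at positions -71, -97 and -73 from the start, and it is read on the opposite strand too, 1 base further on. The TATA element begins at -34, -57 and -29.

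Cxcl10, an interferon-inducible ligand of Cxcr3 at the far end of the same gene cluster, was also higher in pNCSC, and its promoter is shown because it holds a different combination. Printed are the bases from -230 to -91 (chr5:92348980-92349119, minus strand), with capitals for the ISRE core, GAAA followed by any 2 bases and GAAA, an element bound by interferon regulatory factors, and for 2 kappaB matches.
Cxcl10: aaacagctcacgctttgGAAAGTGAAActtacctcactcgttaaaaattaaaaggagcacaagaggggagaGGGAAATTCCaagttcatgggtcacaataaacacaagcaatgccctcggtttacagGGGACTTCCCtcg
Promoter windows of 250 bases before to 50 bases after the start were searched on both strands for these 3 motifs, which do not overlap each other in the stretches printed. A window was found for 39 of the 52 genes. The kappaB consensus was present in 10 of the 39 windows, against 4.51% of all 32851 windows of the table. Of the 14 genes called higher in pNCSC that have a window, 5 held it (Cxcl1, Cxcl2, Cxcl3, Cxcl10, Ccl27a), and of the 20 genes under 4 on all arrays that have one, 5 held it as well (Ackr2, Ccl20, Ccl9, Ccr3, Ccr6). ATAAAAGG was present in 7 of the 39 windows, those of Cxcl1, Cxcl2, Cxcl3, Ccl8, Ackr3, Ccl9 and Xcl1, against 1.76% of all windows. The ISRE core was present in 2, those of Cxcl10 and Cxcl14, against 3.44% of all windows. For Cxcl5, Ccl2 and Ccl7, also higher in pNCSC, no match to any of the 3 motifs was found. Whether each of them had a window is not given here. These matches describe letters in a window and are not shown to be sites.

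In the comparison of the groups, most of the ligands that could be tested were higher in pNCSC, and the scavenger Ackr3 was the one tested receptor that was higher in rNCSC. Of the 52 genes, 26 were under 4 on all 6 arrays, 4 reached 4 on 1 or 2 arrays, and 22 reached 4 on at least 3 arrays and were tested. Of those 22, 21 passed the test at an adjusted p of 0.05, against 73.3% of all 11722 genes tested. Higher in pNCSC were 19, against 33.1% of all genes tested, and higher in rNCSC were 2, Ackr3 and Ccl25, against 40.2%. Cxcl14 did not pass. The groups did not overlap for 21 of the 22, against 78.2% of all genes tested. These counts must be read with the filter: 14 of the 22 were under 4 on all rNCSC arrays and so entered the test only through pNCSC, where they had to be higher. Over all 52 genes, with the dim ones included, the median difference of rNCSC minus pNCSC was -0.20 on the log2 scale (-0.70 for ligands, -0.09 for receptors), and it was 0.01 over all 18194 genes.

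**Figure D1:**
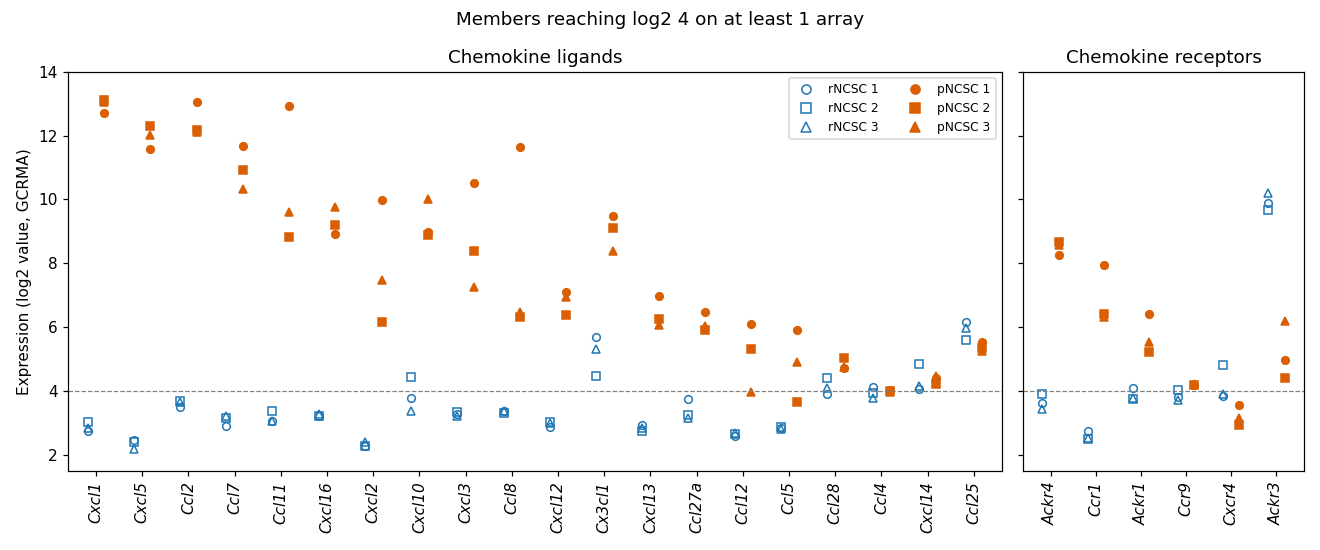
Log2 expression values (vertical axis) of the 20 ligands and 6 receptors that reached 4 on at least 1 array, with 1 point per array, open for rNCSC and filled for pNCSC, and the dashed line at 4. For Cxcl1 the pNCSC arrays lie between 12.72 and 13.11 and the rNCSC arrays between 2.75 and 3.03, whereas for Ackr3 the rNCSC arrays lie highest.

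Among ligands, 15 of the 17 tested were higher in pNCSC, and among receptors 4 of the 5 tested, against 33.1% of all genes tested. However, 12 of the tested ligands and 2 of the tested receptors were under 4 on all rNCSC arrays. They entered the test only through pNCSC, where they had to be higher. On any array, 20 of the 33 ligands and 6 of the 19 receptors reached 4. The 13 ligands under 4 on all arrays were Ccl1, Ccl3, Ccl6, Ccl9, Ccl17, Ccl20, Ccl22, Ccl24, Cxcl9, Cxcl11, Cxcl15, Cxcl17 and Xcl1. The 13 receptors were Ackr2, Ccr2, Ccr3, Ccr4, Ccr6, Ccr7, Ccr8, Ccr10, Cx3cr1, Cxcr2, Cxcr3, Cxcr5 and Cxcr6. Their values lay between 2.02 and 3.98, and a dim probe set gives only an upper limit on the level. RefSeq lists Cxcl11 as a pseudogene on GRCm38.p6, the assembly of the C57BL/6J strain.

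Of the 5 neutrophil-attracting ligands with the ELR motif, 4 were tested and were higher in pNCSC, and Cxcl15 was dim. Cxcl1 was at 2.75, 3.03 and 2.82 on rNCSC replicates 1 to 3 and at 12.72, 13.11 and 13.07 on the pNCSC replicates. All pNCSC arrays were thus far above all rNCSC arrays, by a log2 difference (rNCSC minus pNCSC) of -10.10 (SE 0.15; adjusted p = 3.8e-08). With rNCSC set to 4, because its arrays were below that level, Cxcl1 was at least 501-fold higher in pNCSC, and its other 2 probe sets gave differences of -8.19 and -4.79. Cxcl5 was at 2.46, 2.38 and 2.17 in rNCSC and at 11.59, 12.30 and 12.03 in pNCSC. The gene was at least 251-fold higher in pNCSC (difference -9.64, SE 0.20; adjusted p = 1.2e-07). Both genes varied little among the pNCSC arrays (SD 0.22 and 0.36, n = 3).

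Cxcl2 and Cxcl3, which share receptor Cxcr2 with Cxcl1, varied far more within pNCSC. Cxcl2 was at 2.26, 2.26 and 2.40 in rNCSC and at 9.99, 6.16 and 7.47 in pNCSC, so that replicate 1 was the highest and replicate 2 the lowest of its group. It was at least 14.6-fold higher in pNCSC (difference -5.57, SE 0.88; adjusted p = 0.0012), and without pNCSC replicate 1 the difference was -4.51. Cxcl3 was at 3.27, 3.34 and 3.22 in rNCSC and at 10.50, 8.37 and 7.27 in pNCSC. Cxcl3 was at least 26.2-fold higher (difference -5.43, SE 0.75; adjusted p = 0.00058), and -4.54 without pNCSC replicate 1. Cxcr2, the receptor of all these ligands, was under 4 on all 6 arrays, as was the lung-type ligand Cxcl15.

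Of the 3 interferon-inducible ligands of Cxcr3, Cxcl10 changed, and Cxcl9 and Cxcl11 were dim throughout. Cxcl10 was at 3.77, 4.42 and 3.37 in rNCSC and at 8.98, 8.88 and 10.01 in pNCSC. The groups did not overlap, the difference was -5.44 (SE 0.38; adjusted p = 2.4e-05), and with arrays below 4 set to 4 it was at least 35.5-fold higher in pNCSC. Cxcr3 itself was under 4 on all arrays.

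The remaining CXC ligands differed from each other. Cxcl16, a transmembrane ligand that also acts as a scavenger receptor for oxidised lipoprotein, was at 3.21, 3.20 and 3.27 in rNCSC and at 8.92, 9.21 and 9.75 in pNCSC. It was at least 39.2-fold higher (difference -6.07, SE 0.22; adjusted p = 1.1e-06), with its second probe set at -4.42, and its receptor Cxcr6 was dim. Cxcl13, which attracts B cells through Cxcr5, was at 2.93, 2.74 and 2.83 in rNCSC and at 6.96, 6.25 and 6.05 in pNCSC. Its level was at least 5.35-fold higher (adjusted p = 2e-05). Cxcl14, a ligand of epithelia and fibroblasts, was at 4.06, 4.83 and 4.15 in rNCSC and at 4.41, 4.22 and 4.48 in pNCSC, with overlapping groups (difference -0.03, SE 0.22; adjusted p = 0.92).

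The monocyte-attracting ligands of Ccr2 were higher in pNCSC. Ccl2 was at 3.48, 3.69 and 3.65 in rNCSC and at 13.04, 12.17 and 12.13 in pNCSC, at least 348-fold higher (difference -8.84, SE 0.26; adjusted p = 5e-07). Ccl7 was at 2.90, 3.16 and 3.22 in rNCSC and at 11.69, 10.91 and 10.33 in pNCSC, at least 126-fold higher (difference -7.88, SE 0.33; adjusted p = 2.2e-06). For both, every pNCSC array was above every rNCSC array and replicate 1 was the highest. Ccl8 was at 3.36, 3.30 and 3.38 in rNCSC and at 11.63, 6.31 and 6.48 in pNCSC, so that the mean of the pNCSC group rested largely on replicate 1 (8.14 ± 3.03, SD, n = 3). The bound on its fold was 17.6 towards pNCSC (difference -4.79, SE 1.37; adjusted p = 0.017). Without pNCSC replicate 1 the difference was -3.05 (adjusted p = 6.3e-06), and against a difference of log2 1 rather than 0 the call was lost (adjusted p = 0.051). Ccl12, the fourth of these ligands, reached 4 on 2 arrays and was not tested with the filter. It was at 2.57, 2.65 and 2.67 in rNCSC and at 6.09, 5.31 and 3.95 in pNCSC. Ccr2 was under 4 on all arrays.

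Ccl11, the eotaxin that attracts eosinophils through Ccr3, also had its highest value on pNCSC replicate 1. It was at 3.04, 3.37 and 3.05 in rNCSC and at 12.93, 8.82 and 9.62 in pNCSC. It was at least 87.7-fold higher in pNCSC (difference -7.30, SE 0.99; adjusted p = 0.00055), and the difference was -6.06 without pNCSC replicate 1. Ccl24, the other eotaxin, and Ccr3 were dim.

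Other inflammatory CC ligands were near or below the level of detection. Ccl5, which attracts T cells and monocytes, was at 2.82, 2.87 and 2.79 in rNCSC and at 5.90, 3.66 and 4.91 in pNCSC. Ccl4 was at 4.13, 3.93 and 3.79 in rNCSC and at 4.04, 3.98 and 3.95 in pNCSC, with no separation between the groups. Neither reached 4 on 3 arrays, and Ccl3, Ccl6 and Ccl9 were below 4 throughout.

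Of the 7 homeostatic and T cell directed CC ligands, which are mostly made in epithelia or lymphoid organs, 4 were dim. Ccl27a, a ligand of Ccr10 made by keratinocytes, was at 3.75, 3.25 and 3.15 in rNCSC and at 6.48, 5.90 and 6.03 in pNCSC, at least 4.39-fold higher (difference -2.76, SE 0.22; adjusted p = 4.4e-05). The probe set has an ending that marks possible cross-hybridisation, so signal of its near copy Ccl27b cannot be separated from it. Ccl28, a mucosal ligand of Ccr10 and Ccr3, was at 3.89, 4.41 and 4.08 in rNCSC and at 4.72, 5.02 and 4.74 in pNCSC, at least 1.58-fold higher (difference -0.70, SE 0.17; adjusted p = 0.0085). The other 2 probe sets of Ccl28, under 4 on all arrays, gave differences of 0.07 and -0.01. Ccl25, the thymic ligand of Ccr9, was at 6.17, 5.60 and 5.96 in rNCSC and at 5.52, 5.33 and 5.24 in pNCSC, 1.46-fold higher in rNCSC (difference 0.55, SE 0.18; adjusted p = 0.026). Its groups were separated by little, and the call was lost on leaving out rNCSC replicate 1, rNCSC replicate 3, pNCSC replicate 2 or pNCSC replicate 3 (adjusted p = 0.083, 0.077, 0.069 and 0.087).

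Cx3cl1 (fractalkine), a membrane-bound ligand that is shed by Adam10 and Adam17, was at 5.69, 4.45 and 5.32 in rNCSC and at 9.47, 9.10 and 8.38 in pNCSC. It was above 4 in both groups and 14.2-fold higher in pNCSC (difference -3.83, SE 0.39; adjusted p = 0.00014). Its other probe sets gave smaller differences of -0.61, -0.81 and 0.16, the last on a probe set under 4 on all arrays, and the mean of its probe sets gave -1.27. Cx3cr1, its receptor on microglia and monocytes, was under 4 on all arrays.

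**Figure D2:**
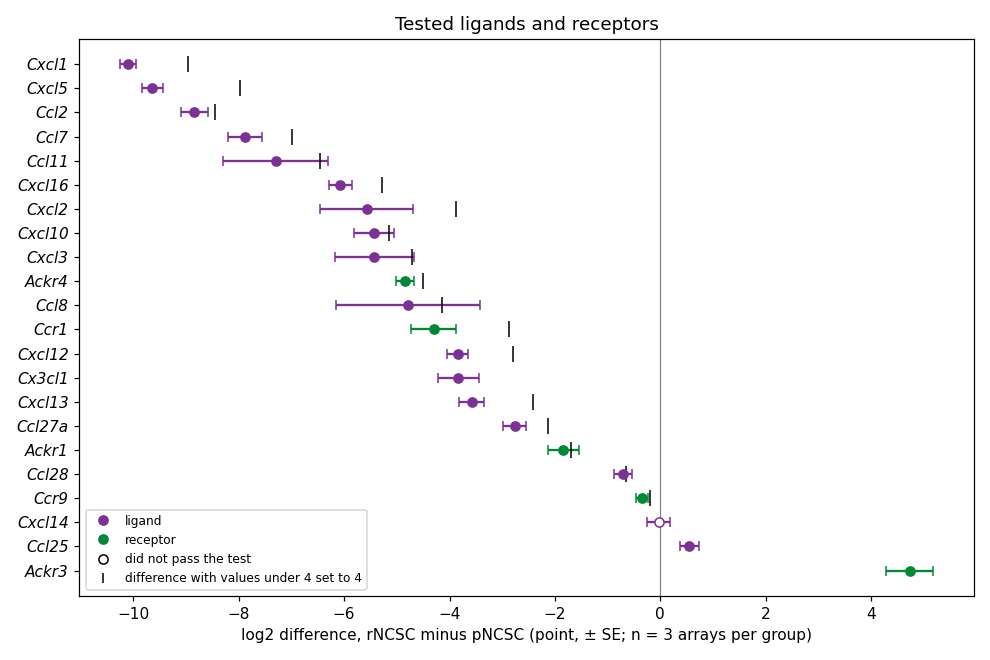
Log2 difference of rNCSC minus pNCSC (horizontal axis; point and SE, 3 arrays per group) for the 17 ligands and 5 receptors tested, with an open point for the gene that did not pass and a bar for the difference with values under 4 set to 4. The differences run from -10.10 for Cxcl1 to 4.73 for Ackr3, and the SE is widest for Ccl8, Ccl11, Cxcl2 and Cxcl3.

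Of the classical receptors, 2 of 15 were tested. Ccr1, a receptor of several CC ligands on monocytes and neutrophils, was at 2.74, 2.49 and 2.52 in rNCSC and at 7.94, 6.41 and 6.30 in pNCSC. It was at least 7.38-fold higher in pNCSC (difference -4.30, SE 0.43; adjusted p = 0.00012), with -3.77 without pNCSC replicate 1 and -2.76 as the mean of its 2 probe sets. Ccr9, the receptor of Ccl25, lay at the level of detection, at 3.80, 4.01 and 3.71 in rNCSC and at 4.18, 4.17 and 4.21 in pNCSC. Its difference of -0.35 (SE 0.12) gave an adjusted p of 0.033 that was lost without any single array other than rNCSC replicate 2, with adjusted p between 0.054 and 0.11, and after quantile normalization or median centring of the arrays (0.056 and 0.064). A second Ccr9 probe set that reached 4 on 3 arrays gave -0.10 with overlapping groups, and 3 dim ones gave 0.05, -0.14 and 0.13.

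Of the 4 atypical receptors, 2 were higher in pNCSC, 1 was higher in rNCSC and 1 was dim. Ackr4, which scavenges Ccl19, Ccl21 and Ccl25, was at 3.62, 3.89 and 3.44 in rNCSC and at 8.26, 8.68 and 8.57 in pNCSC, at least 22.6-fold higher in pNCSC (difference -4.85, SE 0.17; adjusted p = 1.1e-06). All pNCSC arrays of its other 2 probe sets were also above all rNCSC arrays, with smaller differences of -2.37 and -2.08, and the mean of its probe sets gave -3.10. Ackr1, the scavenger of inflammatory CC and CXC ligands on venules and erythrocytes, was at 4.08, 3.74 and 3.79 in rNCSC and at 6.40, 5.21 and 5.54 in pNCSC. It was at least 3.22-fold higher in pNCSC (difference -1.84, SE 0.30; adjusted p = 0.0014). Ackr2, the scavenger of inflammatory CC ligands, was dim.

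Ackr3, which takes up Cxcl12 and so shapes its gradient, was the only tested receptor higher in rNCSC. It was at 9.89, 9.66 and 10.20 in rNCSC and at 4.96, 4.41 and 6.19 in pNCSC. The lowest rNCSC array was above the highest pNCSC array, and the gene was 26.5-fold higher in rNCSC (difference 4.73, SE 0.44; adjusted p = 8.8e-05). Its only probe set has an ending that marks possible binding to other transcripts, so that the gene drops out when such probe sets are not used. Leaving out 1 array at a time gave differences of 4.34 to 5.23.

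Its ligand Cxcl12 differed in the opposite direction on the probe set with the highest mean, at 2.87, 3.01 and 3.00 in rNCSC and at 7.11, 6.37 and 6.93 in pNCSC. That is at least 6.98-fold higher in pNCSC (difference -3.84, SE 0.20; adjusted p = 6.2e-06). A second bright probe set of Cxcl12 did not separate the groups, at 4.48, 4.55 and 4.39 in rNCSC and at 4.46, 4.64 and 4.37 in pNCSC, and the mean over its probe sets gave a difference of -1.58. Cxcr4, the signalling receptor of Cxcl12, was at 3.84, 4.82 and 3.90 in rNCSC and at 3.54, 2.92 and 3.16 in pNCSC. The groups did not overlap, but the gene reached 4 on 1 array and was not tested with the filter.

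With no filter on dim genes, 28 of the 52 genes passed the test, against 53.5% of all 18194 genes. Higher in pNCSC were 24, against 25.0% of all genes, made up of 18 ligands and 6 receptors. Higher in rNCSC were 4, against 28.5%: Ackr3, Ccl25, Cxcr4 (difference 0.98; adjusted p = 0.031) and Ackr2 (0.34; adjusted p = 0.038). The other calls gained without the filter, Ccl12, Ccl5, Ccl9, Ccr7 and Cxcr6, were higher in pNCSC.

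Many chemokine genes lie in clusters, and within them the difference was not the same from gene to gene. On chromosome 5 the order in RefSeq runs Cxcl5, Ppbp, Pf4, Cxcl3, Cxcl15, Cxcl1, Cxcl2, and, after 12 other genes of which Mthfd2l, Epgn, Ereg, Btc and Parm1 come first, Cxcl9, Art3 and Cxcl10. All 5 tested members there were higher in pNCSC. However, the 4 ELR ligands among them were under 4 on all rNCSC arrays and entered the test only through pNCSC. The platelet chemokines Ppbp and Pf4, which the symbol rule leaves out, were under 4 on all arrays, as were Cxcl15 and Cxcl9. Of the 11 tested genes in this stretch that are no chemokines, 8 were higher in pNCSC, against 33.1% of all genes tested, and 2 in rNCSC, against 40.2%. The widest was Ereg (epiregulin, a growth factor), at a difference of -10.79 (adjusted p = 2.7e-08), followed by Parm1 at -6.28 and Btc (betacellulin) at -6.23. Mthfd2l, next to Cxcl2, was higher in rNCSC (1.13; adjusted p = 0.00029). The count of 8 must be read with the filter. Ereg, Btc, Parm1, Cdkl2 and Art3 had rNCSC means under 4 (2.69, 2.88, 3.26, 2.62 and 3.26), so they needed pNCSC arrays to be tested. These genes and Mthfd2l were chosen after their values had been seen.

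On chromosome 11, Ccl2, Ccl7, Ccl11, Ccl12, Ccl8 and Ccl1 lie next to each other, and the first 5 had differences from -8.84 to -2.49, with Ccl1 at -0.11 and dim. Ccl5, Ccl9, Ccl6, Ccl3 and Ccl4 follow after 21 other genes, and none of them reached the filter; without it, Ccl5 (-1.99; adjusted p = 0.017) and Ccl9 (-0.67; adjusted p = 0.0041) passed. Of those 21 genes, 14 were tested, 5 were higher in pNCSC and 4 in rNCSC (the shares over all genes tested are as above), so the stretch between the chemokine blocks went both ways. Here too the filter matters. Unc45b, Slfn5, Slfn8 and Slfn2, higher in pNCSC, had rNCSC means under 4 and needed pNCSC arrays to be tested. Tmem132e and Rasl10b, higher in rNCSC, had pNCSC means under 4 and needed rNCSC arrays. All these were named after their values had been seen. On chromosome 8, Cx3cl1 lies between Ccl22 and Ccl17, both dim. On chromosome 9, Ccr9 and Ccr1 were tested and Cxcr6, Ccr3 and Ccr2, in the same block, were dim.

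**Figure D3:**
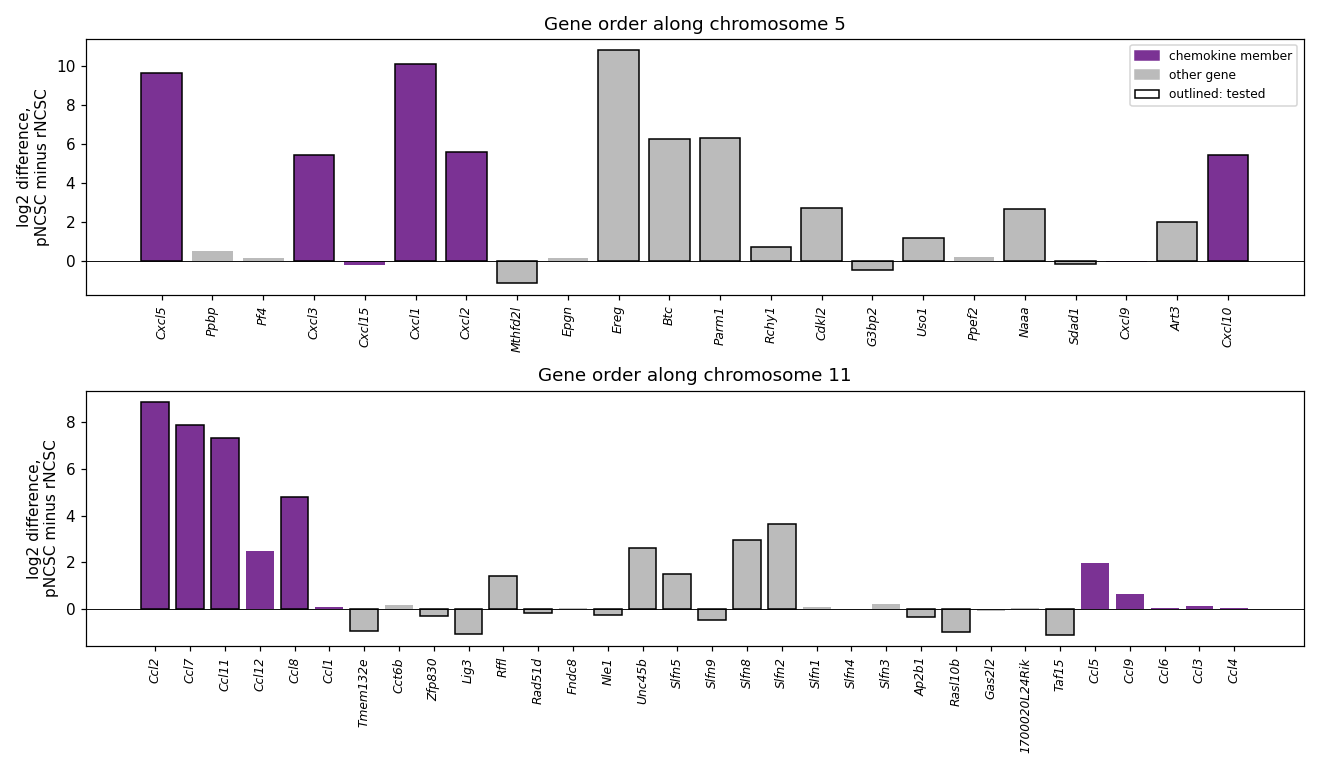
Log2 difference (vertical axis, here turned to pNCSC minus rNCSC so that bars above 0 are higher in pNCSC) of the genes in RefSeq order along the clusters on chromosomes 5 and 11, chemokines in colour, other genes in grey, tested genes outlined. Tall chemokine bars stand beside dim neighbours such as Cxcl15, and the 5 chemokines at the far end of the chromosome 11 stretch were under the filter.

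Within pNCSC the arrays differed for some of these genes more than for most. Of the 19 genes called higher in pNCSC, replicate 1 was the highest of its group for 12, replicate 2 for 4 and replicate 3 for 3. Over all genes higher in pNCSC, replicate 1 was the highest for 39.7%. In 5 of the 22 tested genes, Ccl8, Ccl11, Cxcl2, Cxcl3 and Ccr1, replicate 1 was above both others by more than 1 on the log2 scale, against 3.32% of all genes tested. In none was it below both others by that much, against 0.828% of all genes tested. The gap to the next array was 5.15 for Ccl8, 3.31 for Ccl11, 2.52 for Cxcl2, 2.13 for Cxcl3 and 1.53 for Ccr1. Cxcl1, Cxcl5, Cxcl16, Ackr4 and Ccl28 had replicate 1 as the lowest. The study names no group within pNCSC, and no test was made between its arrays.

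Some other genes also had their highest pNCSC value on replicate 1. Mmp12, a macrophage protease that cleaves chemokines, was at 13.23, 9.74 and 10.51, Il6 at 8.72, 6.03 and 6.60, Il1rn at 8.58, 5.13 and 6.88 (all 3 chosen after their values had been seen), and the mesenchymal marker Thy1 at 10.87, 7.13 and 7.35. The basophil protease Mcpt8 was at 10.33, 5.84 and 5.58. The 6 tested macrophage genes did not share 1 order. Highest on replicate 1 were Cd14 at 11.19, 9.10 and 9.34, Cd53 at 9.11, 7.21 and 7.92 and Tmem119 at 7.05, 6.20 and 6.61. Trem2 was at 8.02, 9.19 and 7.93, Lyz2 at 5.94, 6.60 and 5.16 and Laptm5 at 5.04, 6.64 and 7.50. Cd53 and Lyz2 were named after their values had been seen. The mean of that marker list was 4.44, 4.50 and 4.53, with 12 of its 20 genes under 4 on all arrays. Most mast cell genes went the other way, although Mcpt8, given above as highest on replicate 1, belongs to the mast cell list too. Cpa3 was at 6.45, 10.53 and 11.82, Cma1 at 4.42, 7.68 and 9.88, Mcpt4 at 4.35, 7.30 and 8.29, Fcer1a at 3.55, 6.82 and 8.90 and Mrgprb1 at 3.38, 5.07 and 7.63. Ms4a2 was at 3.38, 4.73 and 6.34 and Kit at 4.25, 5.11 and 6.29. The neural crest markers Ngfr (6.22, 7.79 and 8.55) and Erbb3 (5.20, 6.41 and 7.31) also had their lowest value on replicate 1. In rNCSC, Pdgfra was the one marker whose arrays differed by more than 2, at 8.94, 5.97 and 5.13.

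**Figure D4:**
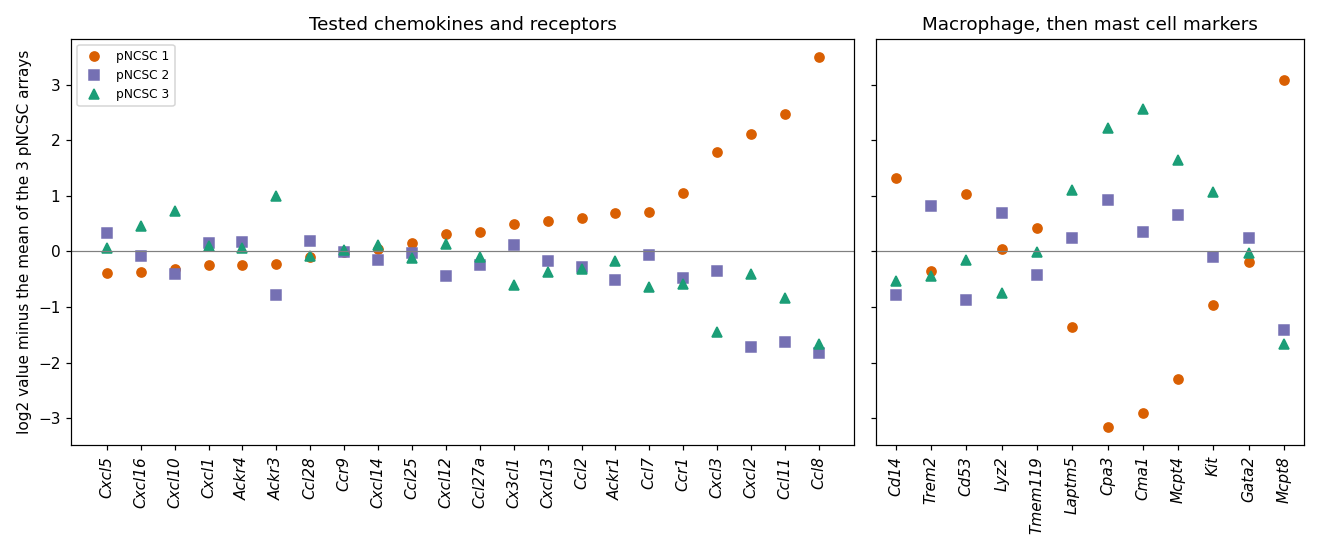
Log2 value minus the mean of the 3 pNCSC arrays (vertical axis) for the 22 tested chemokine and receptor genes, ordered by replicate 1, and for the tested macrophage and mast cell markers. Replicate 1 lies highest for Ccl8, Ccl11, Cxcl2, Cxcl3 and Ccr1 and lowest for Cpa3, Cma1 and Mcpt4. For Mcpt8, on the same mast cell list, it lies highest.

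Because leukocytes make and respond to chemokines, markers of the cells that a palate culture could hold were read in both groups. Of 20 macrophage and microglia markers with a probe set, 6 were tested and all 6 were higher in pNCSC: Cd14, Trem2, Cd53, Lyz2, Tmem119 and Laptm5. Of all genes tested, 33.1% were higher in pNCSC, and 5 of these 6 markers were under 4 on all rNCSC arrays, so that they entered the test only through pNCSC. The same holds for 5 of the 6 tested mast cell markers and for both tested neutrophil markers. The mean level over the list was 2.97 to 3.11 on the rNCSC arrays and 4.44 to 4.53 on the pNCSC arrays. Under 4 on all 6 arrays were 12, including Csf1r, Adgre1, Cd68, Aif1, Itgam, Mrc1, the 3 C1q chains and the pan-leukocyte gene Ptprc, and Tyrobp and Fcer1g reached 4 on 1 or 2 arrays. Of 14 mast cell markers, 5 of the 6 tested were higher in pNCSC (Cpa3, Cma1, Mcpt4, Gata2, Mcpt8) and Kit did not pass, with mean levels of 2.90 to 3.05 in rNCSC and of 4.42, 5.61 and 6.61 on pNCSC replicates 1 to 3. Of 8 neutrophil markers, S100a8 (at least 1240-fold) and Camp (at least 53.8-fold) were higher in pNCSC and S100a9, Elane, Mpo, Ngp, Csf3r and Mmp8 were dim, with list means of 3.00 to 3.05 in rNCSC and 5.28 to 5.52 in pNCSC. All 8 T and NK cell markers and all 4 B cell markers were under 4 on all arrays. Of 6 dendritic cell markers, Zbtb46 was tested and was higher in rNCSC, and Itgax reached 4 on pNCSC replicate 1. Of 8 endothelial markers, Flt1 was higher in pNCSC and the other 7 were dim, which included Pecam1 and Cdh5. Of 6 keratinocyte markers, Epcam was higher in pNCSC (2.38-fold), Krt10 in rNCSC (1.60-fold), Krt5 did not pass and 3 were dim. These levels, like those of the mesenchymal markers, differ between the groups together with the chemokines, and their part in the chemokine differences was not tested.

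Listed genes that switch chemokine transcription on or off were mostly higher in pNCSC. The list holds activators and inhibitors alike, and a link of these genes to the ligand levels was not tested. Of 52 genes listed, 48 had a probe set and 40 were tested. The pNCSC level was the higher for 34 of them, against 33.1% of all genes tested, and the rNCSC level for 2, against 40.2%, while 4 did not pass, with a median difference of -3.02, against 0.12 over all genes tested. Of the 40, 11 were under 4 on all rNCSC arrays and entered only through pNCSC. The smallest adjusted p values belonged to Cebpd, a C/EBP factor of the acute phase (229-fold; adjusted p = 8.8e-08), Il1r1, the signalling receptor of interleukin 1 (at least 94.2-fold; adjusted p = 1e-07), and Zc3h12a, an RNase that degrades chemokine and cytokine mRNAs (at least 7.78-fold; adjusted p = 4.9e-07). Cebpd was at 5.04, 5.33 and 5.27 in rNCSC and at 12.84, 13.12 and 13.20 in pNCSC, with no array out of place. Of the inducing cytokines, Tnf, Il1a, Il1b and Ifng were under 4 on all 6 arrays and Il17a reached 4 on 1 array, whereas Il6 was at 1.92, 2.05 and 1.83 in rNCSC and at least 8.68-fold higher in pNCSC (adjusted p = 0.00037). Higher in rNCSC were Ikbkb, a kinase that activates NF-kappaB (1.90-fold; adjusted p = 0.0018), and Irf3 (1.43-fold; adjusted p = 0.032). Tlr3, Traf6, Jun and Hif1a did not pass. Rel, Stat2 and Irf7 reached 4 on 1 or 2 arrays, and the listed genes without a probe set were not analysed here.

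Other genes of the NF-kappaB pathway were read from the same list. Rela, its activating subunit, was 3.17-fold higher in pNCSC (adjusted p = 0.00028), Relb at least 17.3-fold (adjusted p = 2.2e-06) and Nfkb2 2.15-fold (adjusted p = 0.00053). The inhibitors that NF-kappaB itself induces were higher too, with Nfkbia 4.22-fold, Nfkbie 7.73-fold and Tnfaip3 at least 13.1-fold higher in pNCSC. Among toll-like receptors, Tlr4 was higher at least 53.7-fold and Tlr2 at least 5.94-fold, and the adaptor Myd88 at least 12.3-fold. Of the interferon response, Irf1 was 2.88-fold and Irf9 4.15-fold higher in pNCSC. These 11 genes were named after their values had been seen. Others of the same list went otherwise: Tlr3 and Traf6 did not pass, and Ikbkb and Irf3 were higher in rNCSC.

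**Figure D5:**
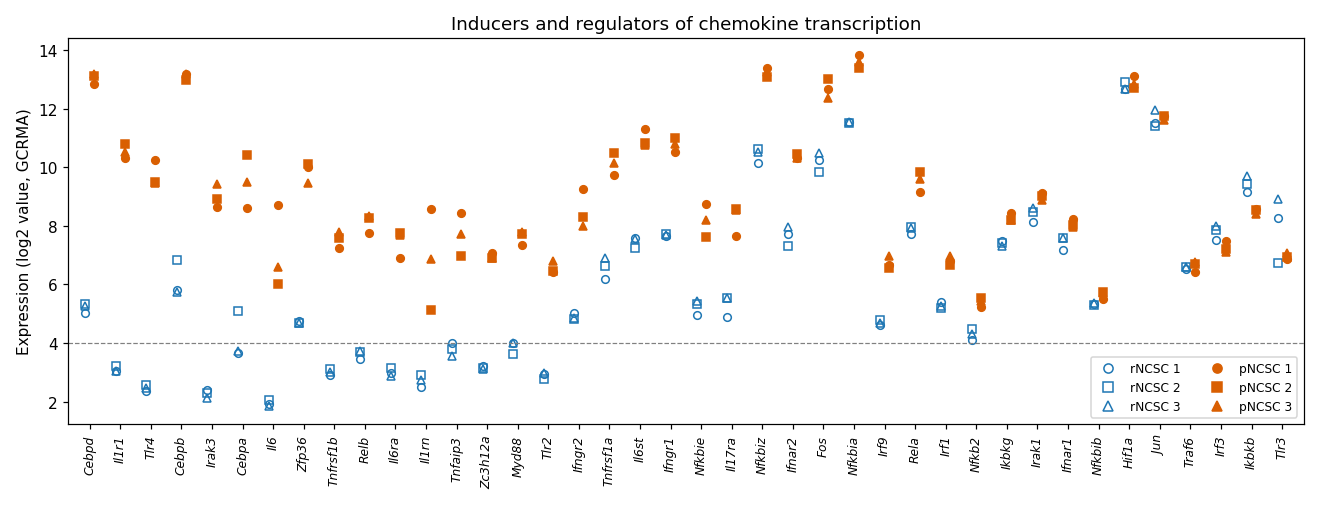
Log2 expression values (vertical axis) of the 40 tested inducers and regulators of chemokine transcription, with 1 point per array, open for rNCSC and filled for pNCSC, and the dashed line at 4. For 34 genes the pNCSC points lie above the rNCSC points and passed the test, and the 6 genes at the right did not pass or were higher in rNCSC.

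Genes of signalling and receptor trafficking, which act downstream of the receptors, were counted in the same way. Of 50 listed, 45 had a probe set and 38 were tested. Of these, 15 passed towards pNCSC, 11 passed towards rNCSC and 12 did not pass, with a median difference of 0.04. That is 26 called in either direction, a share near the 73.3% of all genes tested, so the counts are no result about the list. The receptor kinases that phosphorylate active receptors did not all move the same way. Grk3 was higher in rNCSC, at least 27.4-fold (adjusted p = 5.1e-07), and Grk5 in pNCSC, 11.4-fold (adjusted p = 3e-06). Grk6, named after its values had been seen, was 1.57-fold higher in rNCSC (adjusted p = 0.014). Grk2 had no probe set of a single symbol. Grk3 was at 8.57, 8.72 and 9.05 in rNCSC and at 3.54, 3.36 and 3.27 in pNCSC. Prex1, an activator of Rac downstream of G protein beta and gamma subunits, was 24.8-fold higher in rNCSC (adjusted p = 7.4e-07), and Elmo1, another Rac activator, at least 1.54-fold (adjusted p = 1e-04). Rgs2, which shortens G protein signals, was 22.5-fold higher in pNCSC (adjusted p = 9.9e-07), and the gamma subunit Gng11 37.6-fold (adjusted p = 5.4e-06). The 5 genes under 4 on all arrays were Rac2, Vav1, Dock2, Pik3cg and Jak3, forms used mainly by leukocytes. The inhibitory G protein alpha subunits, through which chemokine receptors signal, were above 4 on all arrays. Gnai1 was 2.90-fold higher in rNCSC (adjusted p = 0.003), and Gnai2 and Gnai3 did not pass (adjusted p = 0.055 and 0.40); all 3 were named after values had been seen.

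Family members outside the symbol rule and genes that handle chemokines were read next. Of 31 listed, 30 had a probe set and 22 were tested. Of these, 15 passed towards pNCSC, against 33.1% of all genes tested, 3 passed towards rNCSC, against 40.2%, and 4 did not pass, with a median difference of -1.38. Of the 22, 4 were under 4 on all rNCSC arrays and entered only through pNCSC. Rarres2, which encodes the attractant chemerin, was at 4.25, 4.36 and 4.24 in rNCSC and at 13.62, 13.88 and 13.56 in pNCSC, 677-fold higher in pNCSC (adjusted p = 3e-08). Next by adjusted p were Cmtm7, at least 10.1-fold (adjusted p = 1.2e-06), and the proteoglycan Sdc2, 12.8-fold (adjusted p = 6e-06). Syndecans present chemokines at the cell surface through heparan sulfate. Mmp12 was at least 143-fold higher in pNCSC (adjusted p = 9.2e-05). The sheddases of Cx3cl1 and Cxcl16, Adam10 and Adam17, were 1.39-fold and 1.99-fold higher in pNCSC (adjusted p = 0.019 and 0.00024). Mmp12, Adam10 and Adam17 were named after their values had been seen. Higher in rNCSC were Tnfaip6, a secreted protein that binds chemokines (2.19-fold; adjusted p = 0.00096), Cmtm4 (1.60-fold; adjusted p = 0.016) and Tmem123 (1.74-fold; adjusted p = 0.034). Cklf, Cmtm6, Mif and Hs2st1 did not pass. The receptor Xcr1, Pf4, Ppbp, Cd74, Dpp4, Gpr182 and Pitpnm3 were under 4 on all arrays, and Ccrl2 reached 4 on pNCSC replicate 1 alone (4.15).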

How the data were processed

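Neurosphere RNA was measured on 6 Affymetrix mouse arrays from 500 ng of total RNA, per the labels' protocols. The authors deposited log2 values of 45101 probe sets, and GCRMA is named by the submitters' processing notes without a version; the log2 scale was read from the range of 1.22 to 15.58. GCRMA gives every array nearly the same distribution (medians 4.01 to 4.04), so a shift of most genes would not be seen, and compresses dim probe sets. Precision is limited by 3 arrays per group. From these values, groups taken from the titles were fitted with limma 3.58.1 (lmFit, eBayes; R 4.3.3), two-sided, without covariates, over genes reaching log2 4 on at least 3 arrays, with Benjamini-Hochberg adjustment over all 11722 genes tested; with 3 arrays on each side the smallest p of an exact permutation test is 0.1. The platform annotation gave 1 symbol for 34958 probe sets and several for 932, which were not used, and 9211 have no name here. Of the 52 genes, 51 matched protein-coding RefSeq entries. RefSeq (GRCm38.p6) gave names, gene order and promoter sequences. Where arrays of the lower group were under 4, they were set to 4 and the fold is a lower bound. On simulated data with 11722 genes, this step recovered 6 of 67 genes at a log2 change of 0.5, 37 of 67 at 1 and 59 of 66 at 2, and made 3 false calls. Only those few genes were changed in the simulation, whereas 73.3% of genes were called in the data. The adjusted p depends on that share, so the simulated recovery does not give the power of this comparison.

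The members and lists were chosen with earlier results of these data known. Named were all members reaching 4 on any array, the 3 genes with the smallest adjusted p per direction of each list, every gene of a count of 5 or fewer, and markers varying by over log2 2 within a group; others are marked as chosen later. Signalling genes without a probe set of a single symbol were not analysed here. Alternatives covered the filter (none, 3, 6), the probe set per gene, quantile normalization, median centring, array weights, a robust prior or variance trend in eBayes, treat, the replicate block, each array left out (with the filter applied again or, added after seeing the data, with the original genes kept) and every probe set tested.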

Additional observations from a re-analysis of the deposited data

Results flagged for a closer look

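Outside the main comparison, 2 probe sets that the annotation assigns to Ccl27a and Ccl27b together were left out of the gene table. Both were higher in pNCSC. The first was at 3.95, 3.84 and 3.68 in rNCSC and at 6.45, 5.76 and 5.65 in pNCSC, a log2 difference of -2.13. The second was at 3.97, 3.76 and 3.62 in rNCSC and at 6.68, 6.07 and 6.33 in pNCSC, a difference of -2.58. All pNCSC arrays were above all rNCSC arrays on each, as on the probe set assigned to Ccl27a alone. The 2 shared probe sets were not tested.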

How the results depend on the processing

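Values of single chemokine genes were compared under each alternative in which the gene was still tested. Of these values, 474 kept their side of the threshold and, where called, their direction, 25 lost the call, 6 gained one and 0 reversed. Cxcl14, which was not called, lay on either side of 0. Calls of genes that were no longer tested count in none of these numbers. The genes that lost the call while still tested were Ccr9, Ccl25, Ccl28 and Ccl8. Those that gained it without a filter or with the filter at 3 were Ccl12, Ccl5 and Cxcr4. Of the 21 calls, 16 were still tested with the filter at 6, which left out Ackr1, Ccl25, Ccl27a, Ccl28 and Ccr9. Averaged probe sets kept 19, without Ccl28 and Ccr9. Probe sets of unambiguous ending kept 18, without Ackr1, Ackr3 and Ccl27a. All calls still tested under these alternatives held. Among all genes, 15550 probe sets passed when every probe set was tested and 3892 genes with treat at log2 1, against 8596 genes. Leaving out 1 array gave 5 to 21 chemokine genes called, 4 to 19 higher in pNCSC, 1 to 2 higher in rNCSC, 3 to 15 ligands and 1 to 4 receptors higher in pNCSC, and 22 to 33 inducers and regulators higher in pNCSC, against 34. Apart from the genes higher in rNCSC, the low ends came without pNCSC replicate 1, 2 or 3, where 2 pNCSC arrays cannot reach the filter of 3 arrays: 6, 5 and 5 were then called, and of the original 21 calls 7 were still tested. With the original genes kept, 19 to 21 of the calls held. The genes higher in rNCSC were 2 in the main comparison, 4 without a filter and with the filter at 3, and 1 with the filter at 6, with probe sets of unambiguous ending (Ccl25, since Ackr3 has no such probe set), with treat, and, with the original genes kept, 1 without rNCSC replicate 1, 1 without rNCSC replicate 3, 1 without pNCSC replicate 2 and 1 without pNCSC replicate 3. With the filter at 6, 2 receptors were higher in pNCSC. Averaging the probe sets of a gene moved 4 called differences by more than 1.5 times, those of Cx3cl1 (-1.27), Cxcl12 (-1.58), Ccr1 (-2.76) and Ackr4 (-3.10; -2.37 with probe sets of unambiguous ending), with the direction kept. The labels give both groups the replicate numbers 1 to 3, but same-numbered arrays did not deviate together (correlations of 0.039, -0.034 and -0.039, others from -0.035 to 0.080). With the replicate block, 20 chemokine genes and 8166 of all genes were called, and Ccr9 was lost (adjusted p = 0.085). The 26 dim genes give only upper limits, and with 3 arrays per group the differences of Ccr9 and Ccl25 were at the edge of what could be called.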
